A study of Mus musculus with 10 samples.

Results

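The 10 genes described here encode subunits of the NuRD complex in E14, a mouse embryonic stem cell line. They were chosen by name, as the genes Chd4, Hdac1, Hdac2, Mta1, Mta2, Mta3, Mbd2, Mbd3, Gatad2a and Gatad2b, and all 10 were found among the 55487 genes of the RNA-seq tables. The series holds 10 samples in 6 groups, which map R-loops (RNA paired with a DNA strand) by MapR and BisMapR, with their controls, and measure RNA. Only the RNA-seq group, of 3 replicates, is used below, and the other 7 samples, on R-loops, are not used. Its cells carried no stated genetic change. They were grown in medium with 15% serum, LIF, a GSK inhibitor at 3 µM and a MEK1/2 inhibitor at 1 µM. With a single group there is no contrast between conditions, so each level is given with its spread over replicates. The labels do not say whether the replicates were separate cultures, so this spread may be technical.

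NuRD joins chromatin remodelling with histone deacetylation. CHD4 is the ATPase that moves nucleosomes, and HDAC1 and HDAC2 remove acetyl groups from histone tails. The MTA proteins form the scaffold that holds the deacetylases, and MBD2 and MBD3 link this deacetylase part, through GATAD2A or GATAD2B, to CHD4. A complex holds MBD2 or MBD3, not both. MBD2 binds methylated CpG, whereas mammalian MBD3 has largely lost that ability. In embryonic stem cells NuRD with MBD3 is known for limiting the expression of pluripotency genes and for its part in exit from self-renewal.

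Sequencing depth, as summed estimated counts, was 11420425 for replicate 1, 6467405 for replicate 2 and 5787357 for replicate 3. The 10 genes together took 11641.3, 6462.0 and 4714.1 of these counts, and the smallest count of any member was 61. All 8 stem cell markers were present, among them Pou5f1 at 149 ± 21.7 TPM and Nanog at 183 ± 29.9 TPM (SD, n = 3). Of 8 fibroblast markers, which feeder cells would carry, Col3a1, Dcn, Lum and Postn had 0 counts in every replicate, Thy1 was at 2.50 ± 1.15 TPM and Pdgfrb at 0.98 ± 0.435 TPM (SD, n = 3). The summed level of the 8 was 4.57, 4.33 and 1.79 TPM in replicates 1, 2 and 3. Of 8 markers of differentiated lineages, Nes alone reached a mean of 1 TPM, at 1.92 ± 0.393 TPM (SD, n = 3).

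Every member was expressed. TPM (a level scaled by transcript length and to a fixed total per library) averaged at least 1 for 10 of the 10 genes. The same held for 44% of all protein-coding genes outside the mitochondrial genome and for 19.8% of all genes. Here and below, protein-coding genes used as background leave out those of the mitochondrial genome. Mean levels ran from 3.82 ± 1.28 TPM for Mbd2 to 23.4 ± 3.14 TPM for Hdac2 (SD, n = 3), and Hdac2 exceeded Mbd2 by 6.49 ± 1.93 times within a library (SD, n = 3). The median over the 10 genes was 11.9 TPM, beside 5.72 TPM for the 9670 expressed protein-coding genes. By mean TPM, 9 of the 10 lay above that median, and Hdac2, Hdac1, Chd4 and Gatad2a lay above its upper quartile of 12.5 TPM. The TPM values are low in absolute terms because protein-coding genes outside the mitochondrial genome held only between 14.8% and 19.5% of all TPM in a library. Genes of effective length under 100 nt held between 60.3% and 65.8%. Rescaled over protein-coding genes alone, the means ran from 22.4 ± 5.06 for Mbd2 to 139 ± 6.87 for Hdac2 (SD, n = 3).

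**Figure D1:**
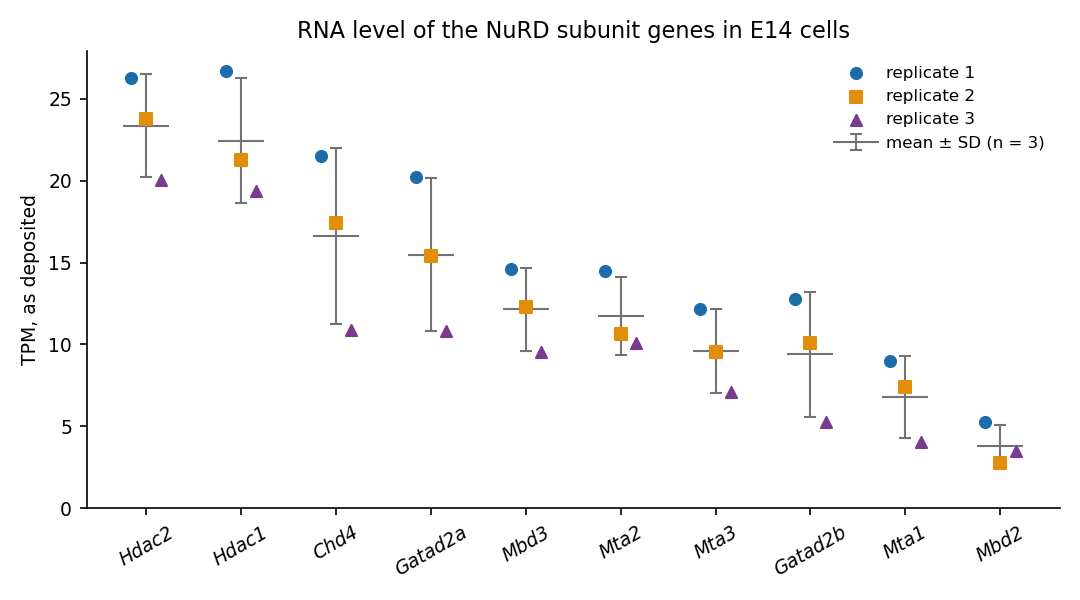
Deposited TPM (vertical axis, linear from 0) of the 10 NuRD subunit genes in each of 3 replicates, ordered by mean; horizontal bars are means and whiskers SD (n = 3). Hdac2 and Hdac1 lie highest, at means of 23.4 and 22.4 TPM, Mbd2 lies lowest at 3.82 TPM, and replicate 1 is the highest point for every gene.

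Promoter sequence is a feature that the choice of genes did not use. RefSeq promoter windows (GRCm38.p6) were matched for 7 members and not for Mbd2, Mta3 and Hdac1. The bases lying 250 to 51 before the annotated start are shown for the ATPase gene Chd4, for Mbd3, the higher of the MBD pair, and for Mta1 and Gatad2b, the genes that differed most between replicates. Each is written 5′ to 3′ on the gene's strand, with CG dinucleotides in capitals. The windows are chr6:125095731-125095930 on the plus strand for Chd4, chr10:80399582-80399781 on the minus strand for Mbd3, chr12:113098028-113098227 on the plus strand for Mta1 and chr3:90292931-90293130 on the plus strand for Gatad2b.
Chd4: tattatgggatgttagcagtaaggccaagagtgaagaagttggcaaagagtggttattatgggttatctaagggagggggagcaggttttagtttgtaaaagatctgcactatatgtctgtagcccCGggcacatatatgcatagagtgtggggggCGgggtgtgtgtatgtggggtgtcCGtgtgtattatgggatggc
Mbd3: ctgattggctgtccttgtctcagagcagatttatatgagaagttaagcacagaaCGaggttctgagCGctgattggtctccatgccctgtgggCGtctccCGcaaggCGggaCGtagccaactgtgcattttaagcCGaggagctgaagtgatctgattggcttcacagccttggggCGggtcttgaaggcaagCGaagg
Mta1: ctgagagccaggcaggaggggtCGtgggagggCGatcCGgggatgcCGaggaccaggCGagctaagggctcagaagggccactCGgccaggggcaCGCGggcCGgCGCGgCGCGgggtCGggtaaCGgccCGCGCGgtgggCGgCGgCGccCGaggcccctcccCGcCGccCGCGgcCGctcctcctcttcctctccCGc
Gatad2b: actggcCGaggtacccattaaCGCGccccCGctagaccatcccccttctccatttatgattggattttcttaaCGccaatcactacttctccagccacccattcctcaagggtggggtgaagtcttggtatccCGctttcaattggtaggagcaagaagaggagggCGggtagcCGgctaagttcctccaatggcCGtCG

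The 4 windows differ widely in CG content. Chd4 had 3 CG dinucleotides in 200 bases, Mbd3 9, Gatad2b 10 and Mta1 28. The unprinted windows of Gatad2a, Mta2 and Hdac2 had 15, 19 and 20. The median of the 7 was 15, beside 12 for the 7710 expressed protein-coding genes with an entry and 4 for all 27025 promoters. Any relation of CG content to the differences between replicates was not tested. The GC box letters GGGCGG, on either strand, were found in 6 of the 7 windows, the exception being Hdac2, and in 46.6% of windows of expressed protein-coding genes and 24.5% of all. The CCAAT box letters CCAAT were found in Mbd3, Gatad2a and Gatad2b, and in 31.6% and 28.9% of the same backgrounds. Letters TATAAA were found in Mbd3 alone of the 7, and in 4.23% of windows of expressed protein-coding genes and 9.48% of all. In Mbd3 they lie on the opposite strand and read TTTATA in the printed sequence. Bases nearer the start than 51 lay outside the windows, so motifs there were not searched. None of the 7 windows held CCGGAAG (an ETS motif), CACGTG (an E-box) or the palindromic NRF1 motif. These were found in 8.78%, 6.49% and 1.10% of windows of expressed protein-coding genes, and in 4.01%, 4.35% and 0.429% of all. Motifs were searched on both strands, and none of the 6 contains another.

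Chd4 (ENSMUSG00000063870, chromosome 6, 125095981 to 125130591, plus strand, GRCm38), the remodelling ATPase, had 21.5, 17.4 and 10.9 TPM in replicates 1, 2 and 3. It was highest in replicate 1 and lowest in replicate 3. Its mean of 16.6 ± 5.35 TPM (SD, n = 3) was at the 81.5 percentile of expressed protein-coding genes. CHD3 and CHD5 are the alternative ATPases of the complex, CHD5 being known chiefly from the nervous system. Within the sum of the 3 genes, Chd4 held 93.6%, 94.2% and 91.2% of TPM. By counts it held 93.7%, 94.2% and 95.7%, so the lower share in replicate 3 depended on length scaling. The deposited length of Chd5 was 9122 nt in replicate 1 and 2296.4 nt in replicate 3. Chd3 had 115, 64 and 32 counts and a mean of 0.86 ± 0.281 TPM, and Chd5 had 80, 40 and 19 counts and a mean of 0.34 ± 0.115 TPM (SD, n = 3). Both lay far below Chd4 in every library, although each was above the floor of 3 counts. A small RNA gene inside Chd4, Gm23751, had between 8 and 19 counts, so overlap could move few reads of Chd4.

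The deacetylase genes were the highest members. Hdac1 (ENSMUSG00000028800, chromosome 4, 129516104 to 129542713, minus strand) had 26.7, 21.2 and 19.4 TPM in replicates 1, 2 and 3. Hdac2 (ENSMUSG00000019777, chromosome 10, 36974544 to 37001889, plus strand) had 26.3, 23.8 and 20.1 TPM. Their ranges overlapped almost entirely, and Hdac1 was the higher in replicate 1 and the lower in replicates 2 and 3. Hdac1 held 48.9 ± 1.61% of the TPM of the pair (SD, n = 3), and the log2 ratio of Hdac1 to Hdac2 was -0.06 ± 0.09 (SD, n = 3; exact sign permutation, two-sided, p = 0.5). These shares rest on how reads were divided with a copy. Hdac1 has a processed pseudogene, Hdac1-ps in RefSeq and Gm10093 in the tables (ENSMUSG00000061062, chromosome 17, 78491582 to 78493025). Gm10093 was assigned 309.4, 241.8 and 277.8 counts in replicates 1, 2 and 3, beside 1230.3, 678.0 and 613.1 for Hdac1. It thereby took 20.1%, 26.3% and 31.2% of the counts of the 2 genes. The counts of Hdac1 are not whole, which shows that reads were split, and its level is uncertain. With the pseudogene's counts added to Hdac1, the log2 ratio to Hdac2 became 0.37 ± 0.11 (SD, n = 3), an alternative chosen after seeing the data. Which of the 2 deacetylase genes was higher therefore depended on that division.

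The 3 MTA genes encode the scaffold subunits. Mta2 (ENSMUSG00000071646, chromosome 19, 8941875 to 8952303, plus strand) had 14.5, 10.6 and 10.1 TPM in replicates 1, 2 and 3. Mta3 (ENSMUSG00000055817, chromosome 17, 83706163 to 83821516, plus strand) had 12.2, 9.52 and 7.07 TPM. Mta1 (ENSMUSG00000021144, chromosome 12, 113098278 to 113137206, plus strand) had 8.96, 7.40 and 4.03 TPM. Within each library the order was the same, with Mta2 above Mta3 and Mta3 above Mta1, although over the replicates the range of Mta3 overlapped those of both Mta2 and Mta1. The ranges of Mta2 and Mta1 were apart. Mta2 held 42.3 ± 4.70%, Mta3 34.1 ± 0.593% and Mta1 23.7 ± 4.11% of their summed TPM (SD, n = 3). The log2 ratio of Mta1 to Mta2 was -0.69, -0.52 and -1.32 in replicates 1, 2 and 3, and that of Mta3 to Mta2 -0.25, -0.16 and -0.51. Both were lowest in replicate 3, and without it the means became -0.61 from -0.85 for Mta1 and -0.20 from -0.31 for Mta3. An exact two-sided sign permutation over 3 libraries cannot give a p below 0.25, the value reached by both. Mta3 is the shortest of the 3 in the tables, at 1694.9 nt in replicate 1 beside 2911.8 nt for Mta2. Its place depended on length scaling: by counts alone its log2 ratio to Mta2 was -1.20 ± 0.18, and Mta1 then exceeded Mta3 in replicates 1 and 2.

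The MBD pair was the most unequal of the 4 families with several members among the 10. Mbd3 (ENSMUSG00000035478, chromosome 10, 80392539 to 80399550, minus strand) had 14.6, 12.3 and 9.55 TPM in replicates 1, 2 and 3. Mbd2 (ENSMUSG00000024513, chromosome 18, 70568189 to 70626131, plus strand) had 5.24, 2.74 and 3.48 TPM. The ranges did not overlap, and Mbd3 held 73.6%, 81.8% and 73.3% of the TPM of the pair. The log2 ratio of Mbd3 to Mbd2 was 1.70 ± 0.40 (SD, n = 3), 3.25-fold, and positive in 3 of 3 libraries (exact sign permutation, two-sided, p = 0.25, the smallest 3 libraries allow). Counts gave 1.79 ± 0.18 (SD, n = 3) without length scaling. By counts, Mbd3 held 76.6%, 80.0% and 75.9% of the pair. The Wilson 95% intervals of these shares were 73.0 to 79.9, 75.3 to 84.0 and 70.3 to 80.7. They overlap, and they cover counting error only.

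Mbd2 was the member with the lowest level and the fewest counts, 135, 65 and 61 in replicates 1, 2 and 3. Its TPM varied 1.91-fold between replicates while its CPM (counts scaled by the library total alone) varied 1.18-fold, at 11.8, 10.1 and 10.5. The deposited length of Mbd2, an average over its 5 transcripts weighted by their estimated abundance, was 1087.4 nt in replicate 1, 1396.5 nt in replicate 2 and 1057.6 nt in replicate 3. Replicate 2 thus had both the greatest length and the lowest TPM. The transcripts range from 494 to 1953 nt in the annotation. With 1 length per gene for all replicates, an alternative chosen after seeing the data, the log2 ratio of Mbd3 to Mbd2 was 1.72 ± 0.18 (SD, n = 3), its mean close to that with the deposited lengths and its SD smaller.

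The GATAD2 genes encode the p66 proteins, which connect the ATPase to the deacetylase part. Gatad2a (ENSMUSG00000036180, chromosome 8, 69907076 to 69996384, minus strand) had 20.2, 15.4 and 10.8 TPM in replicates 1, 2 and 3. Gatad2b (ENSMUSG00000042390, chromosome 3, 90293178 to 90363407, plus strand) had 12.8, 10.1 and 5.27 TPM. Gatad2a was the higher in each library, though the ranges overlapped between libraries. It held 61.2%, 60.4% and 67.3% of the TPM of the pair. The log2 ratio was 0.77 ± 0.23 (SD, n = 3), positive in 3 of 3 libraries (exact sign permutation, two-sided, p = 0.25), and 0.53 ± 0.33 by counts alone. The antisense gene 4930537H20Rik over the start of Gatad2b had 0 counts in every replicate. Gm45477 and Gm45354, which lie within Gatad2b on its strand, had at most 111 and 53 counts in a replicate beside 1523, 739 and 369 for Gatad2b.

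**Figure D2:**
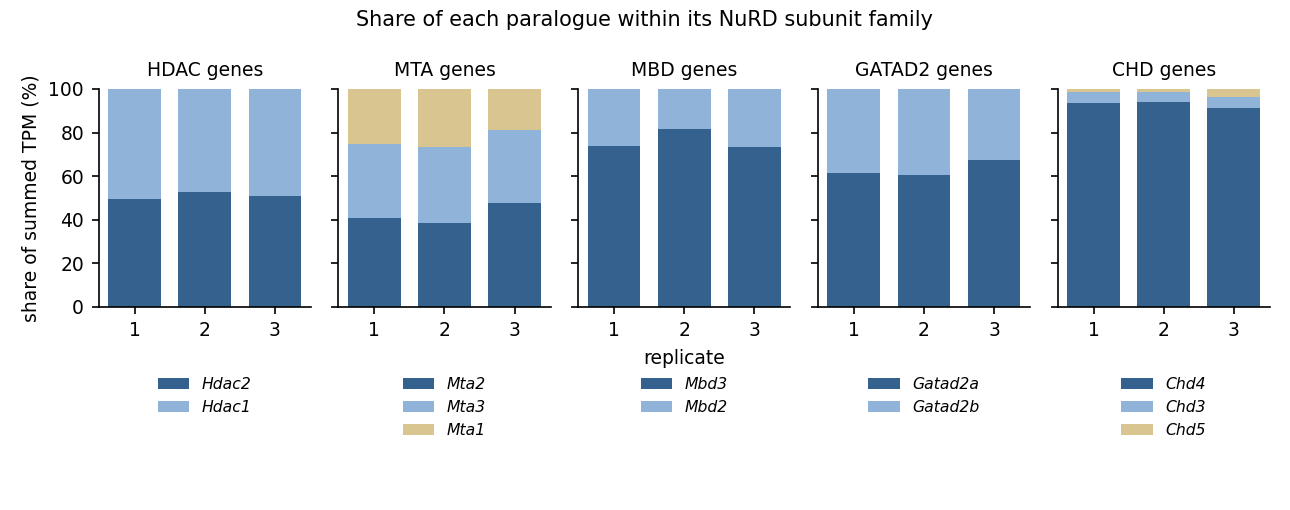
Share of summed TPM (vertical axis, percent) held by each paralogue within 5 NuRD subunit families, 1 stacked bar per replicate. Hdac1 and Hdac2 hold near-equal shares in every replicate, Mbd3 holds 73.3 to 81.8% of its pair, and Chd4 holds 91.2 to 94.2% of its family.

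The order of the 10 genes by mean TPM was Hdac2, Hdac1, Chd4, Gatad2a, Mbd3, Mta2, Mta3, Gatad2b, Mta1 and Mbd2. None of the 9 pairs of neighbours in that order had ranges that were apart. Of all 45 pairs, 22 had ranges that did not overlap, and 42 kept their direction in every library. The exceptions were neighbours: Hdac2 was above Hdac1 in 2 of 3 libraries, Mbd3 above Mta2 in 2 of 3, and Mta3 above Gatad2b in 1 of 3. These 3 pairs differed by less than the spread of their ratios, with log2 ratios of 0.06 ± 0.09, 0.05 ± 0.15 and 0.09 ± 0.29 (SD, n = 3).

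Summed by family, the deacetylase genes held 45.8 ± 6.84 TPM, the MTA genes 28.1 ± 7.24, the GATAD2 genes 24.9 ± 8.48, the CHD genes 17.8 ± 5.55 and the MBD genes 15.98 ± 3.51 TPM (SD, n = 3). Ratios taken within a library are free of the library total. Those with the HDAC genes still rest on how reads were divided between Hdac1 and its pseudogene. HDAC genes exceeded MTA genes 1.49-fold, 1.63-fold and 1.86-fold in replicates 1, 2 and 3, and MBD genes 2.67-fold, 2.99-fold and 3.03-fold. The HDAC sum exceeded the GATAD2 sum 1.61-fold, 1.76-fold and 2.45-fold, and the CHD sum 2.31-fold, 2.43-fold and 3.30-fold, both most in replicate 3. The sum of the MTA genes exceeded that of the MBD genes 1.75 ± 0.11 times, and the GATAD2 sum exceeded the CHD sum 1.39 ± 0.045 times (SD, n = 3). None of these ratios was corrected for the difference of replicate 3 with gene length, described below. The CHD sum was above the MBD sum in replicates 1 and 2, at ratios of 1.16 and 1.23, and below it in replicate 3, at 0.917. These are RNA levels and carry no measure of protein.

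Replicate 1 gave the highest TPM for all 10 genes, and 9 of the 10 were also lowest in replicate 3. This pattern, highest in replicate 1 and lowest in replicate 3, was shown by 72% of expressed protein-coding genes, so it is shared with the background. Protein-coding genes held 19.5%, 16.2% and 14.8% of TPM in replicates 1, 2 and 3. With TPM rescaled over genes of at least 100 nt, 8 members and 58.9% of the background had it. With TPM rescaled over protein-coding genes, 6 members and 40.1% of the background had the pattern. With CPM, 3 members and 38.4% had it.

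Variation between replicates was tested in all 12577 genes with enough counts, by asking in edgeR how far each gene departs from the dispersion trend at its abundance. A gene passed at a Benjamini-Hochberg adjusted p under 0.05. In simulated data only 7 of 50 genes raised 2-fold in 1 replicate passed, so changes of that size could be missed. None of the 10 members passed, where 1.84% of genes tested did. At an unadjusted p under 0.05 there were 2, Mta1 and Gatad2b, where 6.96% of genes tested passed. Mta1 had 50.9, 52.0 and 30.7 CPM after TMM scaling, a correction for library composition, in replicates 1, 2 and 3, with an edgeR adjusted p of 0.653 (unadjusted 0.0422). Gatad2b had 127.6, 111.4 and 69.5 in the same unit, with an edgeR adjusted p of 0.501 (unadjusted 0.0259). In both, replicate 3 stood below the other two. The coefficient of variation was 26.9% for Mta1 and 29.2% for Gatad2b. For the other 8 members it lay between 4.11% for Mbd3 and 8.99% for Mta2. The median over all 10 was 8.63%, beside 12.0% over tested protein-coding genes, which were not matched for abundance.

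Differences of replicate 3 from replicates 1 and 2 followed gene length in the background. The median log2 difference in TMM-scaled CPM was 0.17 in the shortest quartile of protein-coding genes and 0.04, -0.06 and -0.16 in the next 3. Of the members, 6 of 10 were lower in replicate 3, where 50.5% of tested protein-coding genes were. The short genes Mbd2 and Mbd3 had differences of 0.12 and -0.08, and the long genes Chd4 and Gatad2a -0.20 and -0.22. Mta1 at -0.73 and Gatad2b at -0.77 lay below the lower quartile of their length class, which was -0.29 and -0.43. Mbd3 at -0.08 also lay below that of its class, -0.04, by a small margin. Mta2, in the same length class as Mta1, was at 0.21, above the upper quartile of 0.13. After a smooth correction for length, Mta1 was at -0.68 and Gatad2b at -0.62 (adjusted p = 0.635 and 0.721, edgeR goodness-of-fit test). Replicate 3 stood apart in other values as well. Protein-coding genes held 75.4%, 75.1% and 68.9% of counts in replicates 1, 2 and 3. The coefficient of variation that edgeR fitted in common to the genes tested was 0.162 with all replicates and 0.091 without replicate 3. Without replicate 1 it was 0.175, and without replicate 2 it was 0.206. What lay behind these differences was not tested.

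**Figure D3:**
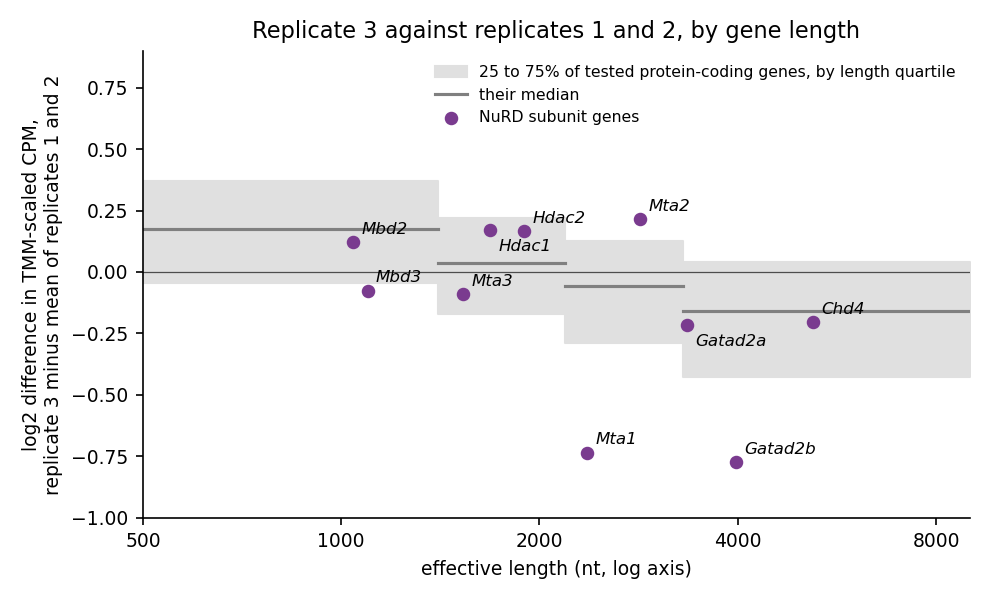
Log2 difference in TMM-scaled CPM between replicate 3 and the mean of replicates 1 and 2 (vertical axis) against effective length in nt (log axis). Points are the 10 NuRD subunit genes; grey bands span the middle 50% of tested protein-coding genes in each length quartile and grey lines their medians. Mta1 at -0.73 and Gatad2b at -0.77 lie below their bands, Mbd3 at -0.08 lies just below its own, and Mta2 at 0.21 lies above.

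Of 6 further subunits, 4 had a mean of at least 1 TPM. RBBP4 and RBBP7 are histone-binding proteins that NuRD shares with other complexes. Rbbp4 had 72.66, 58.04 and 39.87 TPM in replicates 1, 2 and 3, and Rbbp7 had 45.9, 34.9 and 32.1 TPM. Their sum exceeded that of Hdac1 and Hdac2 2.04 ± 0.205 times within a library (SD, n = 3). That ratio leaves out the reads assigned to Gm10093. The counts of Rbbp4 were not whole (3565.8 in replicate 1), so its reads too were split with other genes. Cdk2ap1, which encodes a small NuRD subunit, had 30.6 ± 12.97 TPM, and its relative Cdk2ap2 8.56 ± 3.32 TPM (SD, n = 3). None of the 6 passed the variability test (edgeR goodness-of-fit, adjusted p under 0.05), and none had an unadjusted p under 0.05.

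Among 12 recruiters and partners, 8 had a mean of at least 1 TPM. Kdm1a, the histone demethylase LSD1, was highest at 39.9, 24.1 and 17.6 TPM in replicates 1, 2 and 3. Sall4, a zinc finger protein of stem cells that binds NuRD, had 24.4, 16.9 and 8.06 TPM, and its relative Sall1 14.7, 11.1 and 4.84 TPM. Both were lowest in replicate 3 by TPM, as were 9 of the 10 members and 79.5% of expressed protein-coding genes. In TMM-scaled CPM, the log2 difference of replicate 3 from the others was -0.91 for Sall1 and -0.83 for Sall4. The median over the listed genes tested was -0.62. Neither Sall1 nor Sall4 passed the variability test (edgeR adjusted p = 0.310 and 0.483). The NuRD partners Bcl11a and Bcl11b, known from blood and neural lineages, had at most 3 and 9 counts in a replicate and were the lowest of the list. None of the 10 listed genes tested passed; 3 had an unadjusted p under 0.05, Sall1, Sall4 and Zfpm1.

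**Figure D4:**
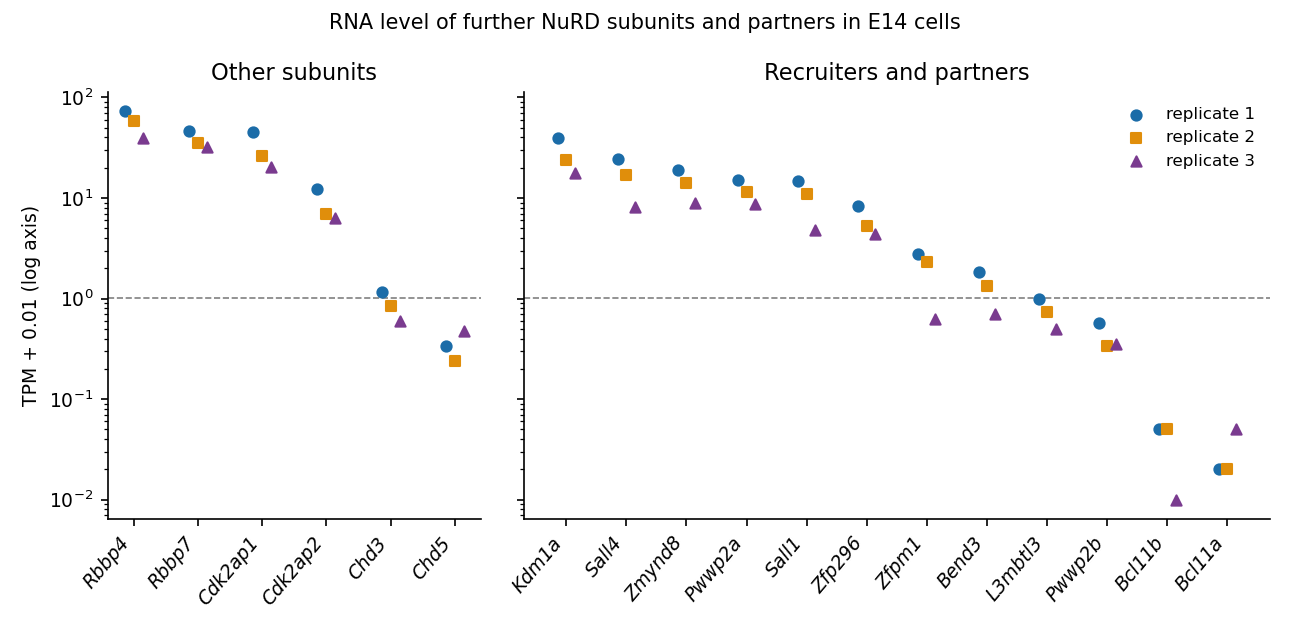
TPM plus 0.01 (vertical axis, log scale) of 6 further NuRD subunit genes and 12 recruiters and partners, with 1 point per replicate and a dashed line at 1 TPM. Rbbp4, Rbbp7, Cdk2ap1 and Kdm1a lie above 10 TPM in every replicate, and Bcl11a and Bcl11b lie near the bottom of the axis.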

How the data were processed

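RNA was measured in 3 replicates of E14 cells. Per the labels' protocols, total RNA was treated with DNase, ribosomal RNA was removed, and a directional kit was used for the libraries. Per the submitters' processing notes, the tools include STAR and RSEM and the build is mm10; versions, annotation release and strand setting are not given in the sources used here. Per the file headers, the authors deposited an expected count for each of 55487 genes, without normalization, with TPM scaled by effective length and to 1 total per library. The FPKM the authors deposited was not used. Replicates were compared first, by chi-square per degree of freedom. It was 6.64 for replicates 1 and 2, 29.2 for 1 and 3, and 20.4 for 2 and 3. No library was therefore taken for a copy of another.

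Names and coordinates came from GENCODE vM21 (GRCm38, the assembly of mm10); 55227 IDs matched. Of 78 listed genes, 1 (Mideas) was not matched by symbol. The members and lists were chosen with earlier results of these data known. All members are named, and of each list the highest, the lowest and up to 4 further genes; some listed genes are not reported here. Rounded counts were fitted with edgeR 4.0.16 in R 4.3.3 (filterByExpr, TMM, intercept only), the p of each gene taken from its deviance under the trended dispersion and adjusted over all genes tested. The test was tried on simulated data in which a single replicate was raised. The changed genes were drawn above a minimum mean count that Mbd2 did not reach, and decreases were not tried. Of 50 genes per fold size, 7 were recovered for 2-fold changes, 36 for 4-fold and 50 for 8-fold. There were 4 false calls in a run on 12337 genes. TPM ratios used no pseudocount; medians of log2(TPM + 1) used 1. Alternatives changed the denominator, length scaling, pseudocount, normalization (DESeq2 1.42.0 size factors), filter, dispersion and replicates. Python 3.11.15, pandas 2.3.3, scipy 1.17.1 and matplotlib 3.10.9 were used.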

Additional observations from a re-analysis of the deposited data

How the results depend on the processing

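There were 10 main results and 62 alternatives. A direction was called only for the ratios Mbd3 to Mbd2, Mta1 to Mta2, Mta3 to Mta2 and Gatad2a to Gatad2b. None of these reversed, but leaving out a replicate or adding a pseudocount could not reverse a sign shared by all 3 libraries. Only the changes of length scaling could, and they did not. The median level of the 10 genes, 3.68 in log2(TPM + 1), became 5.05 with TPM rescaled over genes of effective length of at least 100 nt, 6.16 over protein-coding genes alone and 6.53 with CPM. The TPM denominators shift all genes of a library alike and leave ratios between members as they were. Without 1 replicate in turn the median ran from 3.54 to 3.80. With counts not scaled by length, the log2 ratio was -1.20 for Mta3 to Mta2, -0.24 for Hdac1 to Hdac2 and 0.53 for Gatad2a to Gatad2b. With the counts of Gm10093 added, that of Hdac1 to Hdac2 was 0.37, of the opposite sign to the deposited -0.06, which did not differ from 0 beyond its spread. A minimum of 5 TPM kept 9 of the 10 genes, without Mbd2. No member passed the variability test under any of its 7 alternatives, and without replicate 3 none had an unadjusted p under 0.05 (edgeR). The test had little power for 2-fold changes, so this does not show that the members did not vary. Over all genes, 232 passed, 289 without a filter, and 63 to 93 when a replicate was left out. Depth limits Mbd2 most, where 61 counts in replicate 3 have an exact Poisson 95% interval of 46.7 to 78.4. No paired analysis was possible because the tables are of 1 group.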

Other observations

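Genes related to the NuRD subunits were also expressed. Of the other MBD family genes, Mbd4, which encodes a DNA glycosylase, was highest at 6.08 ± 0.715 TPM (SD, n = 3). It lay below Mbd3 at 12.2 ± 2.54 TPM but above Mbd2 at 3.82 ± 1.28 TPM (SD, n = 3), in each library. Mbd6 had 518, 276 and 51 counts in replicates 1, 2 and 3, and passed the variability test (edgeR goodness-of-fit, adjusted p = 3.4e-06). All 6 listed CHD genes outside the complex had a mean of at least 1 TPM, from Chd7 at 2.47 ± 1.16 TPM to Chd2 at 10.5 ± 1.90 TPM, each below Chd4 at 16.6 ± 5.35 TPM (SD, n = 3).

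Genes of other class I HDAC complexes were also expressed. Of those listed, Ncor1, a corepressor that works with HDAC3, was highest at 54.3 ± 14.96 TPM, and Hdac8 was lowest at 1.47 ± 0.401 TPM (SD, n = 3). Hdac3 had 21.6, 13.7 and 12.3 TPM in replicates 1, 2 and 3, below Hdac1 and Hdac2 in each. Sin3a and Sin3b, scaffolds of another large complex that holds HDAC1 and HDAC2, had 24.4 ± 9.16 and 19.0 ± 2.20 TPM (SD, n = 3).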
